A study of Zea mays with 48 samples.

Results

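The phenylalanine ammonia-lyase (PAL) family was followed here as 7 maize genes, listed by identifier, out of 46272 gene features counted. The members are Zm00001d017274, Zm00001d017275, Zm00001d017276, Zm00001d017279, Zm00001d003015, Zm00001d003016 and Zm00001d033286. They were chosen by family name, not by their values, though with earlier results of these data known. PAL removes ammonia from L-phenylalanine to give trans-cinnamic acid, which is the first step of the phenylpropanoid pathway towards lignin, flavonoids and hydroxycinnamic acid conjugates. Plants carry several PAL genes, grass enzymes of the family can also act on tyrosine, and PAL transcripts are known to rise in many plants after wounding or attack. The files give no separate name or role to any single member, so each is called by its identifier and described as a PAL family gene.

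The study sequenced leaf RNA of maize after feeding by the spider mite Tetranychus urticae, which pierces leaf cells and empties their contents. The B96 experiment covers the inbreds B73 and B96 and the hybrid between them (F1-B73-B96), each with and without mites. The B75 experiment covers B73, B75 and F1-B73-B75 in the same way. B73 is the line of the maize reference genome, and both other inbreds have a background as mite-resistant lines. Each of the 12 groups holds 4 libraries, and every experiment has its own B73 libraries (replicates 1 to 4 in the B96 experiment and 5 to 8 in the B75 experiment). All leaves were the number 4 leaf of plants 22 days old, and all carried a wax barrier. On infested sections 200 adult female mites fed for 24 hours, whereas controls had no mites. Control libraries held 12.5 to 20.9 M gene counts (median 16.4 M) and infested libraries 9.98 to 16.6 M (median 12.4 M). Per the labels, libraries of a group are biological replicates, with no number of plants per library given. The p-values therefore cover only the spread among these libraries, part of which may be technical. The libraries are of bulk leaf, in which fewer cells of a type and less RNA per cell cannot be told apart.

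Levels are counts per M counts of the scaled library (CPM, scaled by TMM within an experiment), given for each library in the order of its replicate number. They are not divided by transcript length, so levels are compared between groups for 1 gene and not between genes. Members that share near-identical stretches may have lost or shared reads in the counting, so their levels are uncertain to that extent. A mite response is infested against control within a line, as a log2 fold change ± SE. A gene is said to have risen, fallen, or been higher or lower where edgeR's quasi-likelihood test gave a Benjamini-Hochberg adjusted p under 0.05 over all genes of the experiment. Overlap of libraries between groups was read for the members only. How many of all genes lack overlap in the same way was not counted. Lack of overlap therefore describes a member's libraries and does not set the members apart from other genes.

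Of the 7 members, 6 passed the filter on low counts in both experiments, and each of these 6 had at least 30 counts in every library. The other member, Zm00001d033286, had 4 counts in all, spread over 3 of 48 libraries with at most 2 in one library. A count of 0 allows up to 3 counts, which is 0.301 CPM in the shallowest and 0.144 CPM in the deepest library, for counting error only. Zm00001d033286 was therefore not detectable above that level in the libraries with a count of 0. In the 3 libraries with counts it reached at most 0.159 CPM. It was not tested.

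**Figure D1:**
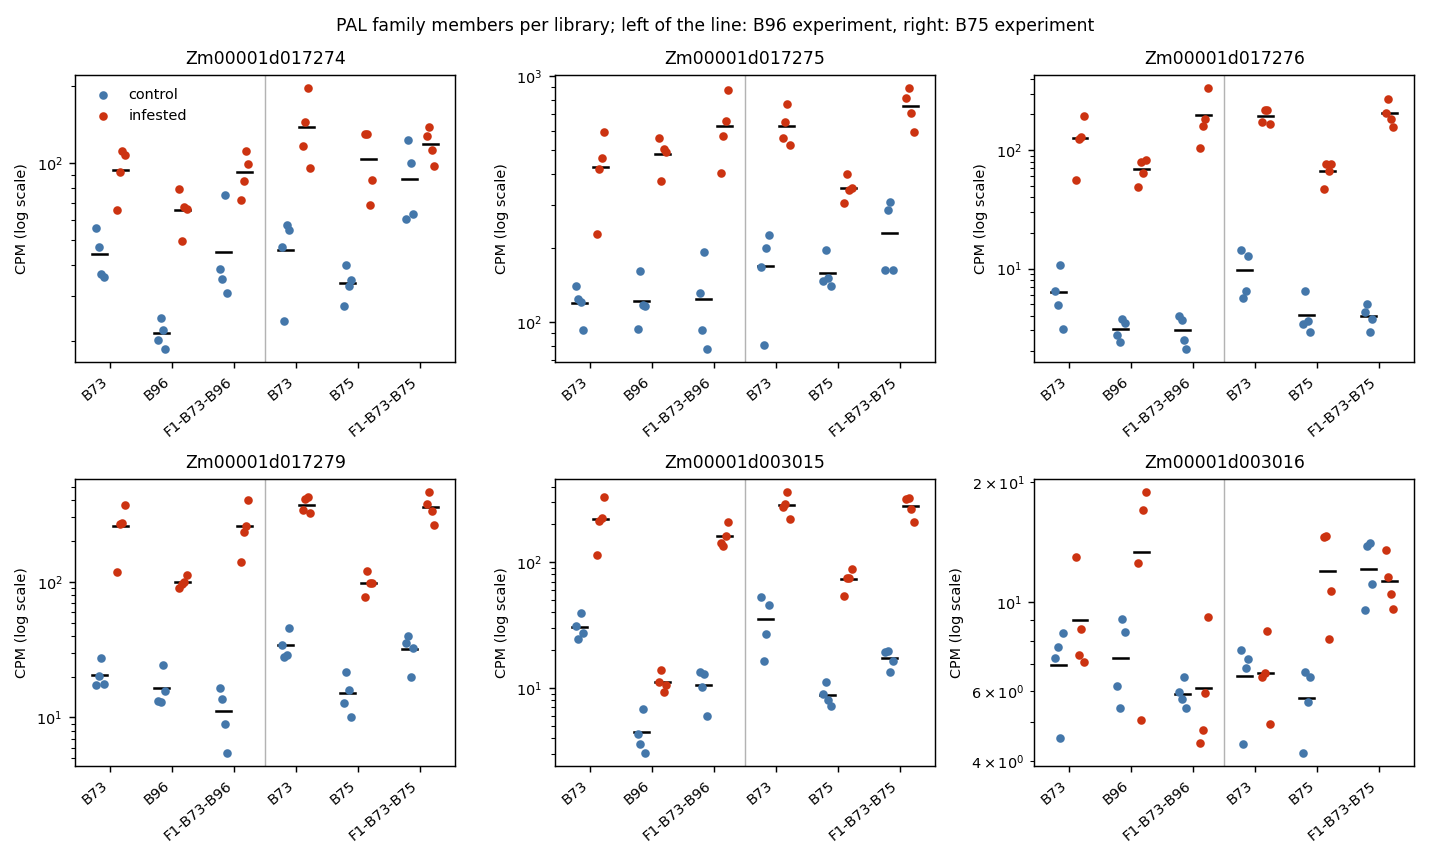
Level of each PAL family gene (CPM, log axis) in every library of the 12 groups, with points for libraries and lines for group means. Control and infested libraries of Zm00001d017275, Zm00001d017276, Zm00001d017279 and Zm00001d003015 do not overlap in any of the 6 line and experiment pairs, while those of Zm00001d003016 mostly do. The share of all genes without overlap was not counted.

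The first comparison asked what 24 hours of mite feeding did to the family in B73. In the B96 experiment 5 of the 6 tested members rose, while 16.3% of all tested genes rose, and no member fell. The median log2 fold change of the 6 was 2.34, against 0 over all tested genes. In the B75 experiment 5 of the 6 rose again, with 18.3% of all genes higher, and the members' median was 2.45 against -0.01.

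Zm00001d017276 rose most in fold of the 6. In B73 of the B96 experiment its control libraries read 6.47, 4.95, 10.8 and 3.06 CPM and its infested libraries 56.1, 125, 129.6 and 192 CPM. Every infested library lay above every control library, and replicate 1 was the lowest of the infested ones. The rise was 19.6-fold (log2 fold change 4.30 ± 0.40, edgeR adjusted p = 7.09e-08). In B73 of the B75 experiment the control libraries read 14.4, 5.6, 6.41 and 12.7 CPM and the infested ones 173, 218, 219 and 166 CPM, again without overlap, and the rise was 19.6-fold (log2 fold change 4.30 ± 0.29, edgeR adjusted p = 1.43e-10). It had the largest log2 fold change of the 6 tested members in all 6 mite responses, and it stood between place 145 and place 344 from the top among the genes tested (22569 in the B96 and 22572 in the B75 experiment).

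Zm00001d017279 also rose in B73 in both experiments. Its B73 control libraries of the B96 experiment read 17.3, 20.1, 27.6 and 17.6 CPM and the infested ones 118, 265, 269.7 and 369.9 CPM, a rise of 12.4-fold (log2 fold change 3.63 ± 0.36, edgeR adjusted p = 1.46e-07). The lowest infested library, replicate 1, was still above the highest control library. In the B75 experiment the B73 values went from 34.3, 28.1, 28.9 and 45.5 CPM to 337, 405, 418 and 320.3 CPM, a rise of 10.8-fold (log2 fold change 3.43 ± 0.24, edgeR adjusted p = 3.8e-10).

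Zm00001d003015 also rose in B73 without overlap between control and infested libraries. Its libraries of the B96 experiment went from 31.3, 24.7, 39.6 and 27.1 CPM to 115, 211, 226 and 328 CPM (log2 fold change 2.84 ± 0.28, edgeR adjusted p = 1.4e-07). Those of the B75 experiment went from 52.7, 16.4, 26.7 and 46 CPM to 273, 291, 363 and 221 CPM (log2 fold change 3.01 ± 0.27, edgeR adjusted p = 1.62e-08). In folds these are 7.16 and 8.08.

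Zm00001d017275 rose in B73 by 3.56-fold in the B96 and 3.71-fold in the B75 experiment. Its B73 control libraries of the B96 experiment read 140.4, 124, 121 and 92.5 CPM and the infested ones 228, 418, 463 and 591 CPM (log2 fold change 1.83 ± 0.29, edgeR adjusted p = 6.42e-05). In the B75 experiment they read 167, 80.6, 201 and 226 CPM without mites and 560.2, 649, 770.1 and 525 CPM with mites (log2 fold change 1.89 ± 0.25, edgeR adjusted p = 4.74e-06). The infested libraries were all above the controls in both experiments.

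Zm00001d017274 rose 2.15-fold in the B96 experiment (log2 fold change 1.10 ± 0.23, edgeR adjusted p = 0.00126) and 3.03-fold in the B75 experiment (log2 fold change 1.60 ± 0.28, edgeR adjusted p = 0.000101). Its B73 libraries went from 55.9, 47, 36.7 and 35.7 CPM to 65.6, 92.2, 111 and 108 CPM in the first and from 46.8, 24, 57 and 54.8 CPM to 117, 145, 198 and 95.3 CPM in the second, with no overlap in either. Zm00001d003016 was the member that did not pass the test in B73. It had a log2 fold change of 0.38 ± 0.30 (95% interval -0.25 to 1.01, edgeR adjusted p = 0.397) in the B96 experiment and 0.02 ± 0.21 (-0.42 to 0.46, edgeR adjusted p = 0.97) in the B75 experiment. Its B73 libraries lay between 4.41 and 13 CPM whatever the treatment.

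The same B73 comparison was made in separate libraries in each experiment. The difference between the B73 responses of the experiments, fitted on the 16 B73 libraries, passed the test for 0 of the 6 members, as for 0% of all genes. By an unadjusted p under 0.05 the count was 0, and no share of all genes was taken at that threshold. DESeq2 called 0 members, with 3 of all 30897 genes higher and 1 lower.

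**Figure D2:**
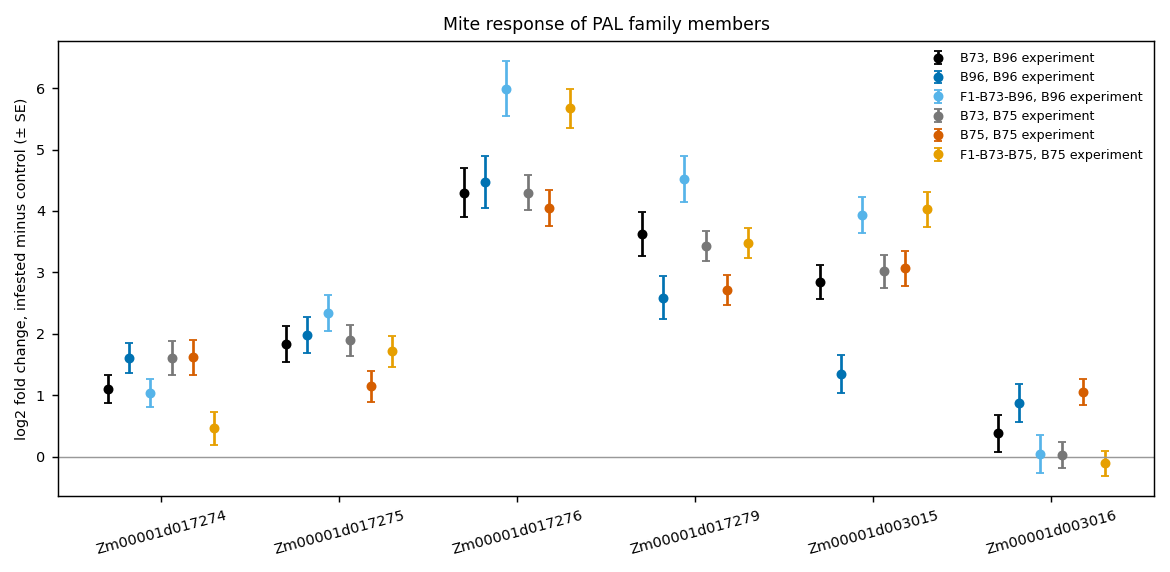
Mite response of the 6 tested PAL family genes (log2 fold change of infested against control, ± SE) in each line and experiment. Zm00001d017276 lies between 4.05 and 5.99 in every line, Zm00001d003015 in B96 is at 1.35, and Zm00001d003016 lies between -0.11 and 0.38 except in B96 and B75.

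In the inbred B96, all 6 tested members rose, while 24.8% of all genes rose. Their median log2 fold change was 1.79, against 0 over all genes. Zm00001d017276 went from 2.77, 2.42, 3.76 and 3.46 CPM to 49, 79.6, 63.8 and 82.4 CPM, a rise of 22.2-fold (log2 fold change 4.47 ± 0.43, edgeR adjusted p = 2.71e-08). Zm00001d017279 went from 13.3, 13, 24.2 and 15.8 CPM to 89.7, 95.7, 100.1 and 113 CPM (log2 fold change 2.59 ± 0.35, edgeR adjusted p = 2.75e-06). Control and infested libraries were apart for both.

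Zm00001d003015 stood out in B96 by its low level in either state. Its B96 control libraries read 4.32, 3.59, 6.75 and 3.04 CPM, and the infested ones 11.1, 14, 9.24 and 10.6 CPM. The rise, 2.54-fold, was past the threshold (log2 fold change 1.35 ± 0.31, edgeR adjusted p = 0.000889), yet every infested B96 library stayed below the lowest B73 control library at 24.7 CPM.

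Zm00001d017275 rose in B96 as well. Its libraries went from 93.5, 162, 118 and 116 CPM to 559, 373, 503 and 492 CPM (log2 fold change 1.98 ± 0.29, edgeR adjusted p = 7.41e-06). Zm00001d017274 went from 20.3, 24.8, 22.1 and 18.7 CPM to 78.8, 49.3, 67.1 and 66.3 CPM (log2 fold change 1.61 ± 0.24, edgeR adjusted p = 9.09e-06). For both genes all infested libraries were above all control libraries.

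Zm00001d003016 also passed the test in B96, from 6.16, 5.42, 9.05 and 8.44 CPM to 12.5, 5.06, 17 and 18.9 CPM (log2 fold change 0.87 ± 0.31, edgeR adjusted p = 0.0213). Here the groups overlapped, since infested replicate 2 was below all 4 control libraries. The call was lost without B96 control replicate 1, control replicate 2, infested replicate 3 or infested replicate 4, where the edgeR adjusted p lay between 0.0567 and 0.0972.

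In F1-B73-B96, 5 of the 6 tested members rose, with 20.3% of all genes higher. The members' median was 3.13, against -0.03 over all genes. Zm00001d017276 showed its largest response here, from 3.95, 3.67, 2.47 and 2.11 CPM to 105, 159.8, 183 and 337 CPM, a rise of 63.7-fold (log2 fold change 5.99 ± 0.44, edgeR adjusted p = 1.16e-09). All infested libraries lay far above all control libraries, with replicate 4 the highest.

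Zm00001d017279 went in the same F1 from 16.5, 13.7, 8.98 and 5.49 CPM to 139.8, 231, 257 and 404 CPM, 23-fold (log2 fold change 4.52 ± 0.38, edgeR adjusted p = 6.04e-09). Zm00001d003015 went from 13.3, 10.2, 12.8 and 5.98 CPM to 142, 134, 161 and 209 CPM, 15.2-fold (log2 fold change 3.93 ± 0.30, edgeR adjusted p = 1.63e-09). Both were without overlap between treatments.

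Zm00001d017275 rose in this F1 from 132, 92.6, 193 and 78 CPM to 405, 569, 655 and 873 CPM (log2 fold change 2.34 ± 0.29, edgeR adjusted p = 1.92e-06). Zm00001d017274 rose from 38.5, 35, 74.7 and 31 CPM to 71.9, 84.9, 112 and 99 CPM (log2 fold change 1.03 ± 0.23, edgeR adjusted p = 0.00117), but control replicate 3 was above infested replicate 1. Zm00001d003016 had a log2 fold change of 0.04 ± 0.31 (95% interval -0.61 to 0.69, edgeR adjusted p = 0.935).

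In the inbred B75 all 6 tested members rose, with 21.7% of all genes higher and a members' median of 2.16 against 0. Zm00001d017276 went from 3.4, 6.45, 3.58 and 2.9 CPM to 46.8, 75.6, 67.1 and 76.4 CPM, 16.6-fold (log2 fold change 4.05 ± 0.30, edgeR adjusted p = 4.88e-10). Zm00001d017279 went from 12.7, 21.8, 15.9 and 10 CPM to 76.7, 119, 98.3 and 98.7 CPM (log2 fold change 2.71 ± 0.24, edgeR adjusted p = 9.85e-09). In both, the treatments were apart.

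Zm00001d003015 rose in B75 from 8.87, 11.2, 8.06 and 7.12 CPM to 54, 75.2, 75.1 and 88.2 CPM, 8.36-fold (log2 fold change 3.06 ± 0.28, edgeR adjusted p = 1.62e-08). Zm00001d017275 rose from 147, 196, 152 and 139.6 CPM to 306, 398, 343 and 349 CPM (log2 fold change 1.14 ± 0.25, edgeR adjusted p = 0.000825), its smallest log2 fold change of the 6 responses. Zm00001d017274 rose from 27.6, 39.9, 32.8 and 34.9 CPM to 129.99, 129.8, 68.6 and 85.5 CPM (log2 fold change 1.61 ± 0.28, edgeR adjusted p = 7.64e-05). The infested libraries of all 3 genes were above the controls.

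B75 was the only line in which Zm00001d003016 rose without overlap between the treatments. Its libraries went from 4.2, 6.69, 5.61 and 6.49 CPM to 14.6, 14.6, 8.09 and 10.6 CPM, 2.08-fold (log2 fold change 1.05 ± 0.21, edgeR adjusted p = 0.000364).

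In F1-B73-B75, 4 of the 6 rose, with 22.4% of all genes higher and a members' median of 2.60 against -0.03. Zm00001d017276 went from 4.3, 5.07, 2.89 and 3.78 CPM to 207, 272, 185 and 156 CPM, 50.9-fold (log2 fold change 5.67 ± 0.31, edgeR adjusted p = 3.54e-12). Zm00001d003015 went from 19.3, 19.6, 13.4 and 16.3 CPM to 321, 326, 265 and 208 CPM, 16.3-fold (log2 fold change 4.03 ± 0.29, edgeR adjusted p = 2.11e-10). Every infested library of both genes was far above the controls.

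Zm00001d017279 rose in this F1 from 35.1, 40, 19.8 and 32.8 CPM to 373, 459.5, 332 and 262 CPM (log2 fold change 3.48 ± 0.24, edgeR adjusted p = 1.79e-10). Zm00001d017275 rose from 163, 285, 306 and 163 CPM to 812, 897, 706 and 593 CPM (log2 fold change 1.71 ± 0.25, edgeR adjusted p = 9.3e-06). Neither gene had overlapping treatments. Zm00001d017274 did not pass the test, with 60.2, 123, 99.9 and 63.1 CPM in control and 128, 139, 112 and 97.5 CPM in infested libraries, which overlapped (log2 fold change 0.46 ± 0.27, edgeR adjusted p = 0.168). All its control libraries in this F1 were above those of B73 and B75. Zm00001d003016 was at 9.57, 13.8, 14.1 and 11.1 CPM in control and 13.5, 11.6, 10.5 and 9.59 CPM in infested libraries (log2 fold change -0.11 ± 0.20, edgeR adjusted p = 0.69).

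Summed over the 7 members, family levels were higher in every infested library than in any control library of the same line and experiment. The sum was not tested. The sum was 228 ± 31.5 CPM (SD, n = 4) in control and 1129.6 ± 413 CPM in infested B73 of the B96 experiment, 4.96 times as much. In B96 it went from 175 ± 29.7 CPM to 740.1 ± 83.9 CPM, 4.23 times, and in F1-B73-B96 from 199 ± 74 CPM to 1339 ± 447 CPM, 6.72 times. These infested sums were lowest in B96, and its highest library, at 799.9 CPM, was below 3 of the 4 infested B73 libraries.

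In the B75 experiment the family sum went from 300.1 ± 99.4 CPM to 1623 ± 284 CPM in B73, 5.41 times. In B75 it went from 226 ± 38 CPM to 703 ± 80.6 CPM, 3.11 times, and in F1-B73-B75 from 381 ± 105 CPM to 1724 ± 334 CPM, 4.52 times. All infested B75 libraries lay below all infested B73 and F1 libraries. In both experiments the sums are not scaled by transcript length, and Zm00001d017275 alone made up 37.7% to 70.2% of them as group means. How far loss of B96, B75 or F1 reads on the B73 genome enters the differences between lines was not tested.

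**Figure D3:**
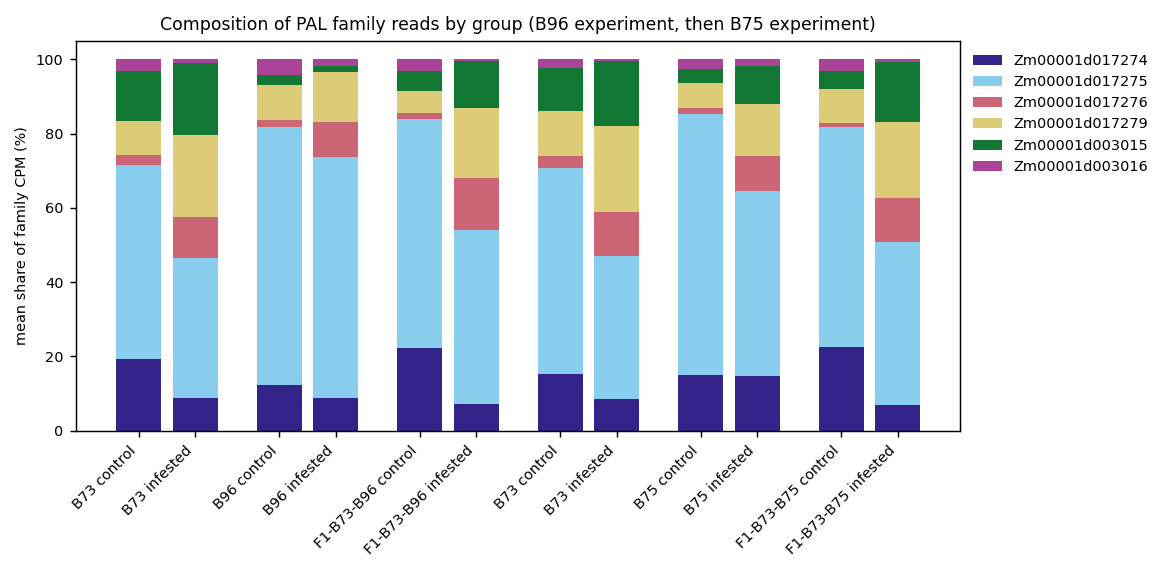
Mean share of each PAL family gene in the family's summed CPM (percent) in the 12 groups. Zm00001d017276 and Zm00001d017279 take larger shares in infested leaves of every line, and Zm00001d003015 takes 1.55% in infested B96 against 19.4% in infested B73.

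The make-up of the family's reads is given as shares, which were not tested. The shares depend on transcript lengths, so they are read here for 1 gene across groups. Zm00001d017276 made up 1.11% to 3.29% of the family sum in the 6 control groups and 9.42% to 14.1% in the 6 infested groups. Zm00001d017275 made up 52.3% to 70.2% in control groups and 37.7% to 64.8% in infested groups, with the highest infested value in B96. Zm00001d003015 went from 13.5 ± 2.56% to 19.4 ± 0.843% in B73 of the B96 experiment and from 5.41 ± 1.07% to 12.6 ± 2.56% in F1-B73-B96. In B96 its share was lower with mites, from 2.57 ± 0.96% (SD, n = 4) to 1.55 ± 0.48%. In B75 it went from 3.89 ± 0.356% to 10.4 ± 1.8%.

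The second question was how the resistant inbreds differed from B73 in the same state. In control leaves of the B96 experiment, 3 of the 6 tested members were lower in B96 than in B73 and none was higher, while 64.4% of all genes differed (32.2% lower). The members called were no larger a share than all genes called in either direction, but a larger one than the genes called lower. Neither difference in shares was tested. In infested leaves 3 members were lower, and 57.8% of all genes differed (29.6% lower).

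Zm00001d003015 had the largest such difference of the members. In control leaves its B96 level was 6.93-fold lower (log2 difference -2.79 ± 0.30, edgeR adjusted p = 3.82e-08), and in infested leaves 19.5-fold lower (log2 difference -4.29 ± 0.30, edgeR adjusted p = 3.37e-11). As group means, B96 had 14.4% of the B73 level in control leaves and 5.10% in infested leaves, and no B96 library reached the lowest B73 library of its state.

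Zm00001d017274 was lower in B96 in control leaves (log2 difference -1.03 ± 0.24, edgeR adjusted p = 0.000605), with all B96 libraries at or under 24.8 CPM and all B73 libraries at or above 35.7 CPM. In infested leaves its difference missed the threshold (log2 difference -0.53 ± 0.23, edgeR adjusted p = 0.0534). It passed with only the groups compared (edgeR adjusted p = 0.0403) and without B73 control replicate 1, B73 infested replicate 1, B96 infested replicate 1 or F1 control replicate 3 or 4 (lowest edgeR adjusted p = 0.0142). Zm00001d017276 was lower in both states, in control leaves (log2 difference -1.05 ± 0.42, edgeR adjusted p = 0.0336) and in infested leaves (log2 difference -0.87 ± 0.35, edgeR adjusted p = 0.035). Both calls were near the threshold and were lost when any 1 of several libraries was left out. The control one was lost without B73 replicate 1 or 3 or B96 replicate 1 or 2 (highest edgeR adjusted p = 0.184). The infested one was lost without B73 replicate 2, 3 or 4 or B96 replicate 1 or 3 (highest edgeR adjusted p = 0.160).

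Zm00001d017279 was lower in infested B96 leaves (log2 difference -1.36 ± 0.33, edgeR adjusted p = 0.0011), where all B96 libraries lay below all B73 libraries. In control leaves it had a difference of -0.32 ± 0.34 (95% interval -1.02 to 0.38, edgeR adjusted p = 0.418). Zm00001d017275 differed from B73 by 0.03 ± 0.28 in control (95% interval -0.55 to 0.61, edgeR adjusted p = 0.93) and 0.18 ± 0.28 in infested leaves (-0.40 to 0.76, edgeR adjusted p = 0.599). Neither passed the test.

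**Figure D4:**
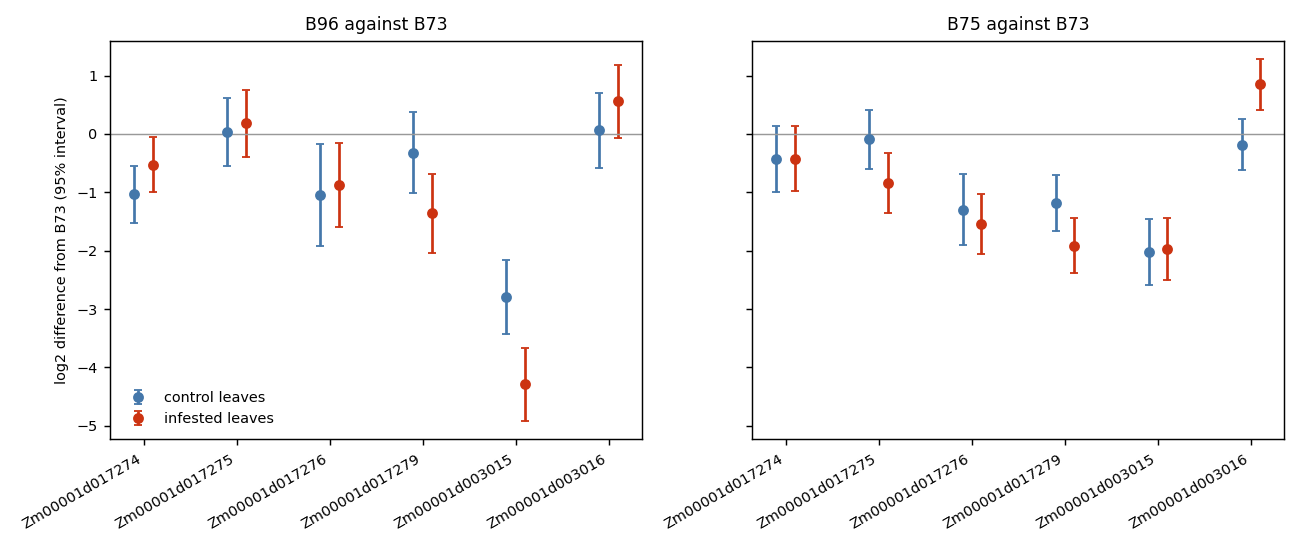
Difference of B96 (left) and B75 (right) from B73 in control and infested leaves (log2, with 95% intervals) for the 6 tested PAL family genes. Zm00001d003015 lies between -4.29 and -1.97 in all 4 comparisons, and Zm00001d003016 in infested B75 is above 0.

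In control leaves of the B75 experiment, 3 of the 6 members were lower in B75 than in B73, and 54.6% of all genes differed (29.3% lower). The 3 were Zm00001d017276 (log2 difference -1.30 ± 0.29, edgeR adjusted p = 0.000669), Zm00001d017279 (log2 difference -1.19 ± 0.23, edgeR adjusted p = 0.000158) and Zm00001d003015 (log2 difference -2.02 ± 0.28, edgeR adjusted p = 1.38e-06). Zm00001d003015 was 4.06-fold lower, at 24.8% of the B73 mean, with no overlap between the lines.

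In infested leaves 4 members were lower in B75 and 1 was higher, while 25.8% of all genes were lower and 27.6% higher (53.5% in all). Zm00001d003015 was lower by the largest amount (log2 difference -1.97 ± 0.26, edgeR adjusted p = 9.28e-07), and Zm00001d017279 came next (log2 difference -1.91 ± 0.23, edgeR adjusted p = 2.17e-07). Zm00001d017276 was lower as well (log2 difference -1.54 ± 0.25, edgeR adjusted p = 1.64e-05). For these 3 genes every infested B75 library was below every infested B73 library.

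Zm00001d017275 was lower in infested B75 leaves (log2 difference -0.84 ± 0.25, edgeR adjusted p = 0.0059), again without overlap, but not in control leaves, where its difference was -0.09 ± 0.24 (95% interval -0.60 to 0.42, edgeR adjusted p = 0.78). Zm00001d003016 was the member that was higher in infested B75 than in infested B73 (log2 difference 0.85 ± 0.21, edgeR adjusted p = 0.00153). Reads of every line were assigned on the B73 genome, and how far loss of reads from B96, B75 or F1 alleles enters these differences was not tested.

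Whether a line responded differently from another was tested as the difference of the responses. Within an experiment these differences share libraries, since each line enters more than one of them. The response of B96 against that of B73 differed for 1 of the 6 members, while 22% of all genes differed (11.6% lower). Zm00001d003015 responded less in B96, with a log2 difference of -1.49 ± 0.41 (edgeR adjusted p = 0.0113). The call was lost without B96 control replicate 3, where the value was -1.19 and the edgeR adjusted p 0.0507. Zm00001d017276 had a difference of 0.18 ± 0.54 (95% interval -0.94 to 1.29, edgeR adjusted p = 0.872), so its response in B96 was not shown to differ from that in B73. Zm00001d017279 had -1.04 ± 0.47 (95% interval -2.01 to -0.07, edgeR adjusted p = 0.115), and without infested B73 replicate 1 it passed the threshold (-1.28, edgeR adjusted p = 0.0414).

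F1-B73-B96 against B96 gave 2 of the 6 members, with 8.96% of all genes different (4.06% higher). Zm00001d003015 responded more in the F1 by 2.58 ± 0.41 (edgeR adjusted p = 0.000536), and Zm00001d017279 by 1.94 ± 0.47 (edgeR adjusted p = 0.0137). Zm00001d017276 missed the threshold at 1.52 ± 0.57 (edgeR adjusted p = 0.0951), and DESeq2 called it (adjusted p = 0.0355).

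F1-B73-B96 against B73 gave 0 of the 6 by edgeR, with 0.151% of all genes called. DESeq2 also called 0, with 117 of all 33399 genes higher and 41 lower. By an unadjusted edgeR p under 0.05 the count was 2 members. The share of all genes at that unadjusted threshold was not taken, so 0.151% is no measure for it. Zm00001d017276 had a difference of 1.70 ± 0.54 (95% interval 0.59 to 2.81, edgeR adjusted p = 0.309) and Zm00001d003015 of 1.09 ± 0.38 (0.31 to 1.87, edgeR adjusted p = 0.421).

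For B75 against B73, the responses differed for 1 of the 6 members, with 9.2% of all genes different (6.53% higher). Zm00001d003016 responded more in B75 by 1.03 ± 0.30 (edgeR adjusted p = 0.0326). That call did not survive leaving out any 1 of 11 libraries, namely B73 control replicate 5, 7 or 8, B73 infested replicate 5, 6 or 8, B75 control replicate 1, B75 infested replicate 1 or 2, and F1 infested replicate 2 or 3 (highest edgeR adjusted p = 0.0934). Zm00001d003015, which was lower in B75 in both states, had a difference of responses of 0.05 ± 0.36 (95% interval -0.70 to 0.80, edgeR adjusted p = 0.975). Zm00001d017279 had -0.73 ± 0.32 (-1.39 to -0.06, edgeR adjusted p = 0.159).

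F1-B73-B75 against B73 gave 0 of the 6 by edgeR, with 0.877% of all genes called. By an unadjusted edgeR p under 0.05 the count was 3 members, for which no share of all genes was taken. Over all genes DESeq2 called 304 higher and 111 lower of 33255. DESeq2 called 1, Zm00001d017276 (log2 difference 1.37, adjusted p = 0.0309), for which edgeR gave 1.37 ± 0.38 (adjusted p = 0.0984). Without B73 control replicate 6, edgeR called both Zm00001d017276 (1.55, adjusted p = 0.0319) and Zm00001d003015 (1.24, adjusted p = 0.0425).

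F1-B73-B75 against B75 gave 2 of the 6, with 2.46% of all genes different (0.634% higher and 1.83% lower). Zm00001d017276 responded more in the F1 by 1.62 ± 0.40 (edgeR adjusted p = 0.033), and Zm00001d003016 less, by -1.16 ± 0.29 (edgeR adjusted p = 0.0354). The first call was lost without B75 control replicate 2, B75 infested replicate 1, or F1 infested replicate 2, and without F1 control replicate 1, 3 or 4 (highest edgeR adjusted p = 0.0690). The second was lost when any 1 of 12 libraries was left out (highest edgeR adjusted p = 0.116), which are B73 control replicate 7, B73 infested replicates 5 and 6, B75 control replicates 1 and 4, B75 infested replicates 1 and 2, F1 control replicates 2 and 3, and F1 infested replicates 2, 3 and 4.

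**Figure D5:**
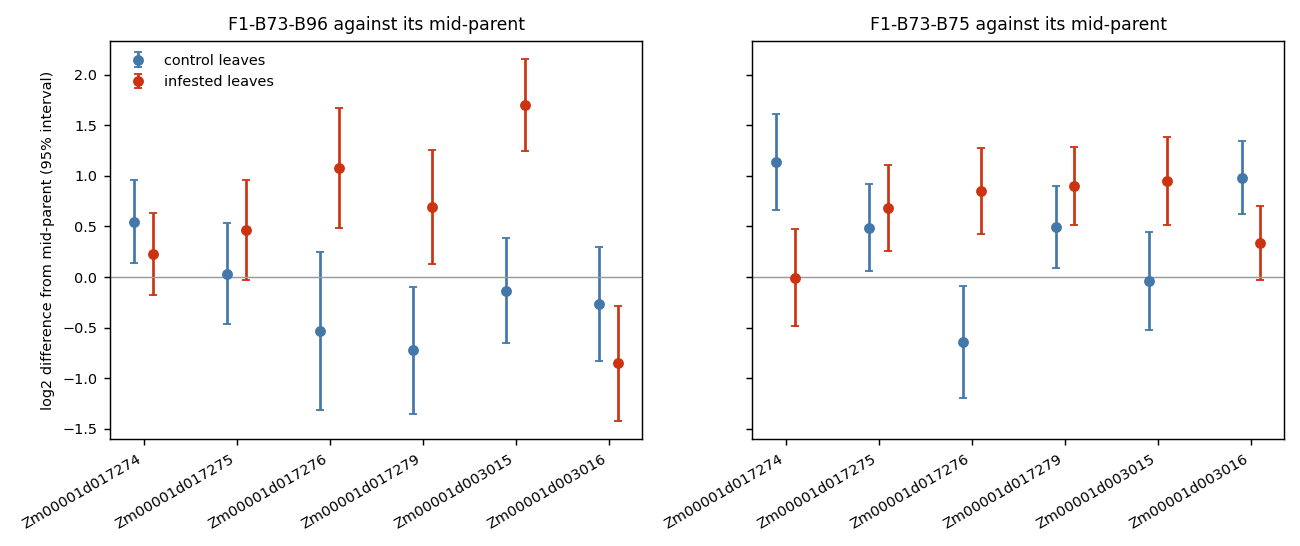
Difference of each F1 from its mid-parent (log2, with 95% intervals) in control and infested leaves for the 6 tested PAL family genes. In infested leaves Zm00001d003015 is at 1.70 in F1-B73-B96 and 0.95 in F1-B73-B75.

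The last comparison set each F1 against the mean of its parents, the mid-parent, on the log2 scale. In control leaves of F1-B73-B96, 1 of the 6 members was higher than the mid-parent and none was lower, while 33.6% of all genes differed (23.5% higher) and the median of all genes was 0.11. The member was Zm00001d017274 (log2 difference 0.55 ± 0.20, edgeR adjusted p = 0.0366), whose F1 libraries read 38.5, 35, 74.7 and 31 CPM. Its replicate 3 stood above the rest, and without it the value was 0.18 (edgeR adjusted p = 0.466). The call was also lost without B73 control replicate 3 or 4 and without B96 control replicate 1, 3 or 4, and it was lost with median-of-ratios size factors (0.0583) and in DESeq2 (0.0546). DESeq2 instead called Zm00001d017279, as lower than the mid-parent (log2 difference -0.78, adjusted p = 0.0299), where edgeR gave -0.73 ± 0.30 (adjusted p = 0.0689) and called it only without B73 infested replicate 1 (0.0401) or F1 control replicate 1 (0.0342).

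Zm00001d003015 in these control leaves had a difference of -0.14 ± 0.25 from the log2 mid-parent (95% interval -0.66 to 0.38, edgeR adjusted p = 0.709). The linear mean of its parents was 17.5 CPM, and the F1 mean of 10.6 CPM was 0.602 of it, so the scale matters where the parents are far apart.

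In infested leaves of F1-B73-B96, 2 members were higher than the mid-parent and 1 was lower, while 23.4% of all genes differed (16.6% higher and 6.84% lower). Zm00001d003015 was higher (log2 difference 1.70 ± 0.22, edgeR adjusted p = 4.13e-06). On the linear scale its F1 mean of 161.8 CPM was 1.4 times the parents' mean of 115.6 CPM, and it was 73.5% of the B73 mean. The B96 mean was 11.2 CPM, so the F1 lay nearer to B73.

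Zm00001d017276 was higher than the infested mid-parent (log2 difference 1.08 ± 0.29, edgeR adjusted p = 0.00902), 2.02 times on the linear scale. Without F1 infested replicate 4, its highest library, the value was 0.68 and the edgeR adjusted p 0.100. Zm00001d003016 was lower (log2 difference -0.85 ± 0.28, edgeR adjusted p = 0.0279), and that call was lost without B73 infested replicate 1, B96 infested replicate 3 or 4, or F1 infested replicate 1, 2 or 3 (highest edgeR adjusted p = 0.0916). Zm00001d017279 had 0.69 ± 0.27 (edgeR adjusted p = 0.0693) and passed the threshold without infested B73 replicate 4, without control F1 replicate 4 and without infested F1 replicate 1 (lowest edgeR adjusted p = 0.0203).

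In control leaves of F1-B73-B75, 2 of the 6 members were higher than the mid-parent, while 19.8% of all genes differed (15.8% higher). Zm00001d017274 was 2.2-fold higher (log2 difference 1.14 ± 0.23, edgeR adjusted p = 0.000843), with an F1 mean of 189.6% of the B73 mean. Every F1 library, the lowest at 60.2 CPM, was above every control library of B73 and B75. Zm00001d003016 was 1.98-fold higher (log2 difference 0.98 ± 0.17, edgeR adjusted p = 0.000237). All its F1 libraries, from 9.57 to 14.1 CPM, were again above those of both parents. Zm00001d017276 pointed the other way at -0.64 and missed the threshold (edgeR adjusted p = 0.0932). DESeq2 called it lower (log2 difference -0.70, adjusted p = 0.0348), as did edgeR without B73 control replicate 6 or 7. Zm00001d017279 missed the threshold on the higher side (edgeR adjusted p = 0.0783) and passed it without some single libraries.

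In infested leaves of F1-B73-B75, 4 of the 6 were higher than the mid-parent, while 12.8% of all genes differed (11% higher). They were Zm00001d017275 (log2 difference 0.69 ± 0.21, edgeR adjusted p = 0.0287), Zm00001d017276 (log2 difference 0.85 ± 0.21, edgeR adjusted p = 0.00628), Zm00001d017279 (log2 difference 0.90 ± 0.19, edgeR adjusted p = 0.0014) and Zm00001d003015 (log2 difference 0.95 ± 0.21, edgeR adjusted p = 0.0028). Against B73, the F1 means were 120.1% for Zm00001d017275, 105.6% for Zm00001d017276, 96.3% for Zm00001d017279 and 97.5% for Zm00001d003015. The call of Zm00001d017275 was lost without B73 infested replicate 5 or 8 or F1 infested replicate 1 or 2 (highest edgeR adjusted p = 0.113).

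Ordered by level within an experiment, the members fell into different patterns. For Zm00001d017276 and Zm00001d017279 the 3 infested groups of both experiments came first, with the other inbred below the F1 and B73. The means of the F1 and B73 differed by less than the larger SD over libraries, taken without regard to replicate numbers. Zm00001d003015 in the B96 experiment had infested B73 first and the F1 within the SD of it, then control B73, and only then infested B96, which was within the SD of the control F1. In the B75 experiment all 3 infested groups of Zm00001d003015 came before the controls. For Zm00001d003016 in the B96 experiment each of the 6 groups was within the larger SD of its neighbour in the order. In the B75 experiment both F1 groups and infested B75 formed the upper end of that gene's order, within the SD of one another.

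Across the 12 group means of log2(CPM + 0.5), the tested members other than Zm00001d003016 ran together, with Pearson's r from 0.783 (Zm00001d017275 with Zm00001d003015) to 0.979 (Zm00001d017276 with Zm00001d017279). Zm00001d003016 had r from 0.121 to 0.463 with the others. These values describe 12 means that share the treatment and the line, and come from libraries scaled within each experiment.

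Among 17564 other Zm features with at least 5 CPM in their highest group, the feature whose 12 group means were most like Zm00001d017276 was Zm00001d027727 (r = 0.992). It was Zm00001d036715 for Zm00001d017279 (r = 0.985), Zm00001d043060 for Zm00001d003015 (r = 0.988) and Zm00001d043727 for Zm00001d017275 (r = 0.985). For Zm00001d017274 it was Zm00001d012850 (r = 0.965). The pattern of Zm00001d003016 had no such close match, its best being Zm00001d016733 (r = 0.823). Over the 48 single libraries the nearest feature was another one for every member except Zm00001d003016.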

How the data were processed

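Leaf libraries were made with a stranded poly(A) kit (TruSeq Stranded mRNA), per the labels' protocols. The authors deposited 1 table of raw counts, whole numbers per gene feature and library. Reads were aligned with STAR 2.5.3a and counted with HTSeq 0.9.1 on B73 RefGen_v4, per the submitters' processing notes, whose counting options are not stated in those notes. Summary lines for unassigned reads (a mean of 17.6% of reads, 12.7 to 28%) stayed out of library sizes and tests. Replicate libraries of a group all differed by more than sampling noise (lowest chi-square per gene 5.13).

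Tests used R 4.3.3 and edgeR 4.0.16, with DESeq2 1.42.0 as an alternative. All 24 libraries of an experiment entered 1 fit as group means, after filterByExpr with a minimum count of 10 and TMM scaling, with edgeR's quasi-likelihood test and Benjamini-Hochberg adjustment over all genes at a threshold of 0.05. CPM use the TMM-scaled library size, and the pseudocount of 0.5 enters only the likeness of patterns. The SE and 95% intervals come from the same fits. Alternatives were median-of-ratios size factors, DESeq2, no low-count filter, a replicate block, only the groups compared, and leaving out each library. Families of tests cover 10 contrasts in each experiment and 1 between them.

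Named genes are all 7 members and, for each tested member, the 1 other Zm feature with the highest Pearson's r over the 12 group means. The members and lists were chosen with earlier results of these data known. The reference table used here is of a later assembly and matched 0 of 44146 Zm identifiers. Gene names, positions, lengths and sequences are therefore not given, and the lists of other phenylpropanoid genes and of leaf cell markers gave no value, so the labelled tissue was not checked against markers.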

Additional observations from a re-analysis of the deposited data

Results flagged for a closer look

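The differences of mite responses that passed the edgeR test between lines (adjusted p over all genes) are those below. Zm00001d003015 responded less in B96 than in B73 (log2 difference -1.49) and more in F1-B73-B96 than in B96 (2.58). Zm00001d017279 responded more in F1-B73-B96 than in B96 (1.94), and Zm00001d017276 more in F1-B73-B75 than in B75 (1.62). Zm00001d003016 responded more in B75 than in B73 (1.03) and less in F1-B73-B75 than in B75 (-1.16). Both calls of Zm00001d003016 and that of Zm00001d017276 were lost when any 1 of several libraries was left out. That of Zm00001d003015 in B96 against B73 was lost without 1 library. With no low-count filter both calls of Zm00001d003016 were lost as well (edgeR adjusted p = 0.0542 and 0.0564). The B96 libraries of Zm00001d003015, at 3.04 to 14 CPM, were all below the B73 libraries of the same treatment, and the part of read loss on the B73 genome in this was not tested. Of 72 groups of 4 libraries, 0 held a library whose gap to the nearest other was past Dixon's 95% critical value.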

How the results depend on the processing

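Of 440 values of 88 member results under the alternatives other than leaving out a library, 422 kept their direction and side of the threshold, 8 newly passed it, 7 no longer did and 3 changed sign. The 3 were the difference of responses of Zm00001d003015 between B75 and B73, near 0 in the main test, which was -0.0063 with DESeq2, -0.022 with no low-count filter and -0.012 with only the groups compared. Counts of members called that moved by more than 1.5 times come first. Brackets give all genes called higher and lower under the same setting. F1-B73-B96 against the mid-parent in control leaves had 1 in the main fit. It had 0 with median-of-ratios size factors (4431 and 2830 of 22569) or only the groups compared (5125 and 2161 of 21379). The B75 against B73 responses had 1 in the main fit. They had 0 with no low-count filter (989 and 641 of 33264) or only the groups compared (981 and 533 of 22221). The F1-B73-B75 against B73 responses had 0, and 1 with DESeq2 (304 and 111 of 33255). The F1-B73-B75 against B75 responses had 2, and 1 with no low-count filter (181 and 239 of 33264). Smaller moves were from 3 to 4 for B96 against B73 in infested leaves with only the groups compared, from 2 to 3 for the F1-B73-B96 against B96 responses with DESeq2 or only the groups compared, from 3 to 2 for the F1-B73-B96 mid-parent in infested leaves and from 2 to 3 for the F1-B73-B75 against B75 responses with only the groups compared, and from 2 to 3 for the F1-B73-B75 mid-parent in control leaves with DESeq2. The cause was not tested.

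Leaving out 1 library at a time gave 2112 values, of which 2006 stayed the same, 21 newly passed, 60 no longer did and 25 changed sign. The number of members called ranged from 2 to 5 for B96 against B73 in infested leaves and from 2 to 3 in control leaves. It ranged from 0 to 2 for the B96 against B73 responses, the F1-B73-B96 mid-parent in control leaves, and the F1-B73-B75 against B73 and against B75 responses, and from 0 to 1 for the B75 against B73 responses. It ranged from 2 to 4 for the F1-B73-B96 mid-parent in infested leaves, and from 2 to 3 for the F1-B73-B75 mid-parent in control leaves. It ranged from 5 to 6 for the B96 mite response, and from 3 to 4 for B75 against B73 in control leaves and for the F1-B73-B75 mid-parent in infested leaves. In the other comparisons it did not move. The share of all genes called in each of these fits is not given here, so these ranges describe the members only. Sign changes touched values that did not pass the test. These ranged from -0.22 to 0.16 for Zm00001d003016 in the F1-B73-B96 response, from -0.12 to 0.17 for it in the B73 response of the B75 experiment, and from -0.13 to 0.14 (control) and -0.027 to 0.38 (infested) for Zm00001d017275 in B96 against B73. They ranged from -0.21 to 0.46 for Zm00001d017276 in the B96 against B73 responses, from -0.26 to 0.054 for Zm00001d003015 in the F1-B73-B96 mid-parent in control leaves, from -0.32 to 0.084 for Zm00001d017275 in B75 against B73 in control leaves, and from -0.21 to 0.28 for Zm00001d003015 in the B75 against B73 responses.

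Replicate numbers in the labels are shared between groups, with B73 replicates 5 to 8 taken as 1 to 4. Library numbers run in sets of 6 that hold 1 such number of all groups of an experiment. For example, libraries 1 to 6 are replicate 4 of the B96 experiment. The labels do not say whether these sets are blocks. Same-numbered libraries did not deviate together throughout. Every same-number correlation was over 0.1 in 4 of 30 pairs of groups (range -0.328 to 0.561). The median was 0.126, against -0.0402 for other numbers. The numbers were not taken as pairs in the main fit, and a block by number was fitted as an alternative. One of the 4 is infested B73 with infested F1-B73-B96 (0.160 to 0.561). There Zm00001d017276 and Zm00001d017275 were higher in the F1 at 4 of 4 numbers, and the other tested members were not. How many of all genes were higher in this way was not counted. With the replicate number as a block, 1 member call changed, Zm00001d017274 in B96 against B73 in infested leaves (log2 difference -0.52, edgeR adjusted p = 0.0497), which took that count from 3 to 4, and the other counts of members called were as given.

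Mean levels moved by less than 1 SD in 72 of 72 cases with median-of-ratios size factors and in 71 of 72 with total gene counts. The depth, 9.98 to 20.9 M gene counts, limits values of a few CPM, such as those of Zm00001d003016, of control Zm00001d017276 and of Zm00001d003015 in control B96, where the 4 libraries held 36 to 88 counts.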

Other observations

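Infested libraries of the B96 experiment differed widely in family level. The summed level of the 7 members was 595 CPM in infested B73 replicate 1 and 1597 CPM in replicate 4, and 867 CPM in infested F1-B73-B96 replicate 1 and 1932 CPM in replicate 4. Infested B96 libraries lay closer together, between 617 and 799.9 CPM. In the infested groups of the B75 experiment the sums ran from 1332 to 1977 CPM in B73, from 628 to 813 CPM in B75 and from 1326 to 2105 CPM in F1-B73-B75.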
